A study of Mus musculus with 18 samples.

Results

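The comparison of D-amphetamine with saline on day 21 rested on 6 of the 18 striatal libraries of the study, 3 from mice given the drug and 3 from mice given saline, and covered the 13975 of 29942 genes whose mean over all 18 libraries was at least 1 FPKM (fragment counts corrected for the length of the transcript and the size of the library). The libraries were chosen by their labelled treatment and day alone. All animals were siblings of the 129Sv/Jae S4 strain, matched for age and sex within groups and housed together, and the labels name no genetic manipulation. The drug group received D-amphetamine hemisulfate dissolved in 0.9% saline, given intraperitoneally at 10 ml/kg to a daily total of 7 mg/kg, and the control group received 0.9% saline by the same route. The label of both groups is day 21, and the corresponding groups of 3 and 3 labelled day 1 and day 7 served for comparison. The sources used here do not give age, sex or the interval between the last injection and dissection. PolyA RNA came from striatal tissue of both sides that lay dorsal to the anterior commissure, so each value averages over all its cell types, and fewer cells of a type cannot be told apart from less RNA per cell. The title of the series concerns repetitive behaviours brought on by drugs, and the comparison asks which striatal transcripts differed under the drug at the latest of the sampled days.

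Amphetamine releases dopamine from the terminals that midbrain neurons send to the striatum. Most striatal neurons are GABAergic projection cells of either the direct pathway, which carry D1 dopamine receptors and make dynorphin and substance P, or the indirect pathway, which carry D2 receptors and make enkephalin. In D1 neurons dopamine raises cAMP, and cAMP and ERK kinase signals switch on immediate-early genes such as Fos within minutes, partly through CREB, a factor that binds cAMP response elements (CRE) in promoters. Repeated dosing with psychostimulants is known to blunt part of this first wave and to raise dynorphin transcripts.

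The tissue label was borne out by its markers. Striatal projection neuron transcripts were abundant in all 6 libraries, with Penk between 1122 and 1306 FPKM and Drd2 between 101 and 153 FPKM. Sums of FPKM ran from 545800 to 578900, and pairs of libraries correlated at 0.922 to 0.939 within a group and at 0.920 to 0.937 across the groups on the log2 scale. Relative to the deepest of the 18 libraries, depth was 0.783 to 0.923 in the saline group and 0.652 to 0.832 in the amphetamine group. Saline replicate 1 stood apart in transcripts of cortical glutamatergic neurons, the tissue that lies over the striatum. Slc17a7, their vesicular glutamate transporter, stood at 48.4, 7.42 and 19.6 FPKM in the saline animals and at 11.3, 20.3 and 10.5 FPKM in the amphetamine animals. The summed level of the 6 tested cortical markers was 53.5 to 116 FPKM under saline and 57.2 to 79.9 FPKM under amphetamine, so results below are also given without that library where they rest on it.

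No gene passed the adjusted threshold of 0.05 in the limma test (smallest adjusted p = 0.0604), and 768 genes had an unadjusted p under 0.05, or 5.50% of those tested. Of these, 325 were higher under amphetamine (2.33% of the genes tested) and 443 lower (3.17%). Quantile normalization moved that split to 440 higher of 791. Groups that did not overlap, meaning that all 3 animals of a group lay beyond all 3 of the other, occurred in 665 genes on the higher side (4.76%) and 1050 on the lower side (7.51%), together 12.3%. The median log2 difference over all genes was -0.02 and its 5th to 95th percentile ran from -0.28 to 0.23. Single genes are therefore given below with their values, and where no adjusted p is printed for a tested gene it was 0.869 or higher. Lists are given by their counts, to be read against 42.7% of all genes higher and 56.6% lower.

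Immediate-early and ERK feedback genes nevertheless made up 6 of the 10 genes with the smallest p, namely Btg2, Fos, Dusp1, Cyr61, Rgs2 and Junb. Their lists held 60 of the 13975 genes tested and were written with earlier results of these data known. Fos, the AP-1 subunit most used as a marker of neuronal activity, measured 5.03, 7.38 and 3.12 FPKM in the saline animals and 25.7, 17.7 and 17.3 FPKM in the amphetamine animals. The lowest drug-treated animal was above the highest control, and means were 5.18 ± 2.14 and 20.2 ± 4.77 FPKM (SD, n = 3 each), a ratio of 3.91. On the log2(FPKM + 1) scale used for all tests here, which understates ratios of low genes, Fos was 1.82 ± 0.28 (SE) higher (limma adjusted p = 0.0717). Btg2, an antiproliferative gene induced by growth and depolarising signals, stood at 3.50, 3.50 and 2.65 FPKM under saline against 11.98, 9.60 and 8.63 FPKM under amphetamine. Its log2 difference was 1.39 ± 0.21 (SE, limma adjusted p = 0.0604). In 3 of 16 alternative settings both genes passed the threshold, namely when only genes of at least 5 FPKM were tested (limma adjusted p = 0.0464 for each), after quantile normalization (0.0484 for each), and when genes of short RNAs were left out (0.0405 for Fos and 0.0354 for Btg2), a setting chosen after seeing the data. In the rest neither passed, with adjusted p up to 0.763.

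**Figure D1:**
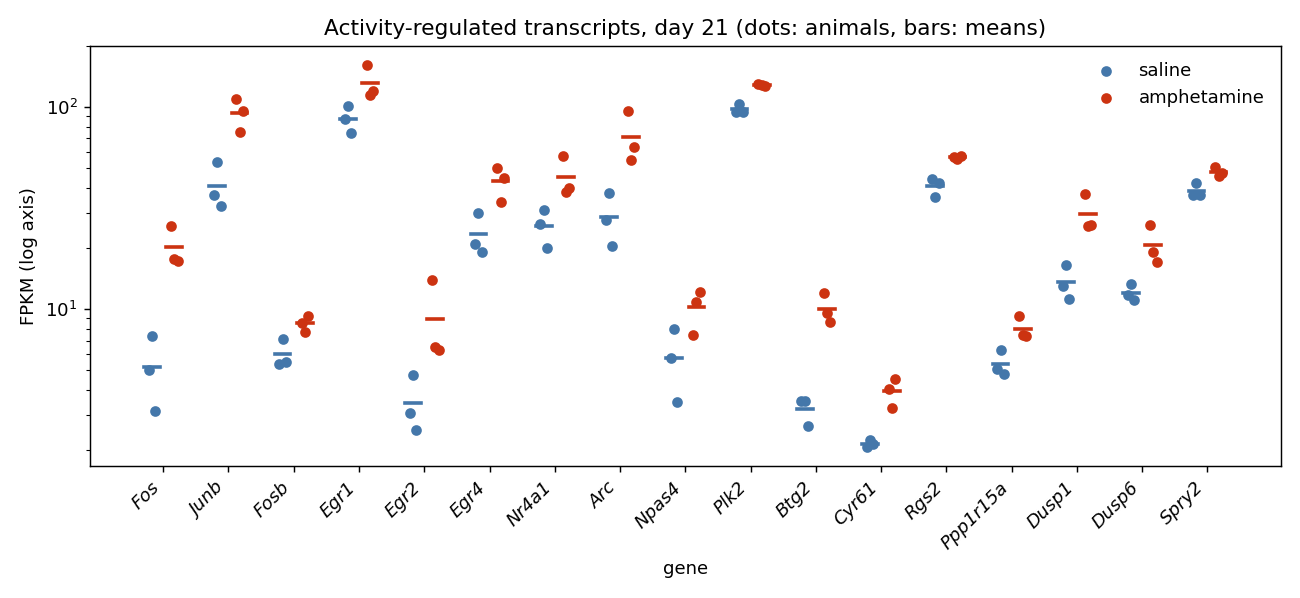
FPKM (log axis) of 17 activity-regulated genes in the 3 saline animals (blue) and the 3 amphetamine animals (red) of day 21, with bars at the means. In Fos, Btg2, Arc, Dusp1 and the others the red points lie above the blue ones, except in Npas4, where 1 amphetamine animal lies within the saline range.

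The promoters of the 6 immediate-early and ERK feedback genes among the 10 smallest p are shown for their matches to the CRE, the element that CREB binds. RefSeq promoter windows (assembly GRCm38.p6, 250 bases before to 50 bases after the annotated start) were matched to 48 of the 60 tested immediate-early and ERK feedback genes. Arc, Egr1 and Trib1 were among those without a window. Printed here are the 200 bases just before the start, 5′ to 3′ on the gene's strand, with every match to the CRE core, TGACGT or its reverse complement, in capitals. The stretches are chr12:85473690-85473889 on the plus strand for Fos, chr1:134079156-134079355 on the minus strand for Btg2, chr17:26508473-26508672 on the minus strand for Dusp1, chr3:145649986-145650185 on the minus strand for Cyr61, chr1:144004150-144004349 on the minus strand for Rgs2 and chr8:84978749-84978948 on the minus strand for Junb.
Fos: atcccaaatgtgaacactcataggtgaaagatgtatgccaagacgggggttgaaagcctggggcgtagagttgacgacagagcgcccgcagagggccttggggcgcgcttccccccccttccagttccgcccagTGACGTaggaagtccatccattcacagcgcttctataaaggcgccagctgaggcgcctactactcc
Btg2: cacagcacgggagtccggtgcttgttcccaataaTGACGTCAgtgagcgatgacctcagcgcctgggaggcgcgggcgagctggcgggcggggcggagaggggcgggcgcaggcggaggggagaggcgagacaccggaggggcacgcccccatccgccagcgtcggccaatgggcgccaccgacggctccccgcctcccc
Dusp1: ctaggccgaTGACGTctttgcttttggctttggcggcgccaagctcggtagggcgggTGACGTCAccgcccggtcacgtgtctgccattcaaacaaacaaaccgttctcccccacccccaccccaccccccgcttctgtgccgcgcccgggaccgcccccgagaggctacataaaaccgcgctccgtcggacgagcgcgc
Cyr61: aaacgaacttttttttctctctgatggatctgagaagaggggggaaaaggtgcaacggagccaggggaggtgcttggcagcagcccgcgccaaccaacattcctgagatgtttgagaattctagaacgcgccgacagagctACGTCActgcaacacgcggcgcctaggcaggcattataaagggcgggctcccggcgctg
Rgs2: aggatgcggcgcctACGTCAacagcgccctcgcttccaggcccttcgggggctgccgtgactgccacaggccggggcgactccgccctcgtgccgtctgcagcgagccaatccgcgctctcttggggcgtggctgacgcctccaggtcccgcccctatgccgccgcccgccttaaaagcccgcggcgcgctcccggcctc
Junb: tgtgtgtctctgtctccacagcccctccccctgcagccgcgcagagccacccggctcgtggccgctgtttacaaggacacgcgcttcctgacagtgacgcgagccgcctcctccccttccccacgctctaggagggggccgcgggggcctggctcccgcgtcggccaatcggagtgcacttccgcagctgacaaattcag
Btg2 and Dusp1 carried the full palindrome TGACGTCA, in which the core is read on both strands, 166 and 143 bases before the start. Dusp1 had a further core 191 bases before the start. Fos, Cyr61 and Rgs2 each had a single core, at 66, 59 and 186 bases, and the Junb window held none. Counting both strands, the core was found in 18 of the 48 genes (37.5%). It was in 13.4% of the 8750 tested genes with a window and in 8.37% of all 27025 genes with one. A gene counted if any of its windows matched, and some genes, such as Egr2 with 5, had several. Among the 20 matched activity genes higher at an unadjusted p under 0.05 on day 21 the core was in 12 (60.0%). Among the 28 others it was in 6 (21.4%). That split was made by the day 21 values themselves and carries no test. The full palindrome was in 6 of 48 (12.5%) against 3.70% of tested genes. For comparison, the Egr site GCGNGGGCG was in 11 of 48 (22.9%, against 13.3%), the CArG box read by serum response factor in 3 (6.25%, against 1.58%) and the AP-1 site TGANTCA in 1 (2.08%, against 5.69%). Matches are letters in a window and were not measured as bound sites, and a part of CREB in these results was not tested.

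Of 53 immediate-early genes listed, 48 had a mean of at least 1 FPKM and were tested. Amphetamine values were higher on average in 40 of them, where 42.7% of all tested genes were higher, and the median log2 difference was 0.22. In 20 the unadjusted p was under 0.05 with the drug group higher, against 2.33% of all genes, and in none with the drug group lower. Groups did not overlap in 17 on the higher side (4.76% of all genes) and in 2 on the lower side (7.51% of all genes). The mean log2 level of the list was 3.44, 3.48 and 3.29 in the saline animals and 3.84, 3.66 and 3.70 in the amphetamine animals, without overlap. Leaving out saline replicate 1, the library with the most cortical transcript, gave 43 of 48 and a median of 0.26. The untested 5 were Fosl1, Atf3, Maff, Bdnf and Ptgs2, all below 1 FPKM on average. Of these Atf3 was at 0.561, 0.280 and 0.465 FPKM under saline and at 0.971, 0.777 and 0.847 FPKM under amphetamine.

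Among the AP-1 subunits, 5 of 6 tested were higher and 3 had groups that did not overlap, all higher (4.76% of all genes). Junb, a partner of Fos in the dimer, measured 36.9, 53.4 and 32.3 FPKM under saline and 109, 74.9 and 96.1 FPKM under amphetamine (log2 difference 1.19 ± 0.25 SE, limma adjusted p = 0.46). Fosb, whose stable splice product accumulates on repeated drug exposure, lay closer together at 5.37, 7.13 and 5.49 against 8.50, 7.76 and 9.26 FPKM (0.45 ± 0.19, limma adjusted p = 0.869). Gene-level values do not separate its splice forms. Jund, at 59.1 to 70.3 FPKM under saline and 56.1 to 73.5 FPKM under amphetamine, gave overlapping groups.

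The Egr zinc finger factors and their Nab corepressors divided by member. Egr2 was at 3.08, 4.73 and 2.54 FPKM under saline and at 13.99, 6.49 and 6.25 FPKM under amphetamine (log2 difference 1.10 ± 0.34 SE, limma adjusted p = 0.837). Its spread in the drug group came mostly from replicate 1. Egr4 measured 21.1, 30.1 and 19.2 against 50.03, 34.1 and 44.8 FPKM, and Egr1, the most abundant of the family, 87.8, 101 and 74.2 against 162, 115 and 120 FPKM. The groups of these 3 genes did not overlap. Egr3, Nab1 and Nab2 had overlapping groups and log2 differences of 0.07, -0.00 and -0.10. Within the Nr4a orphan receptors the members differed in sign. Nr4a1 measured 26.4, 31.0 and 20.2 FPKM under saline and 57.4, 38.1 and 39.98 FPKM under amphetamine (log2 difference 0.78 ± 0.27, limma adjusted p = 0.869). Nr4a2 measured 6.83, 2.66 and 4.53 against 1.25, 2.62 and 1.81 FPKM, lower without overlap although by a narrow margin (-0.93 ± 0.52, limma adjusted p = 0.869).

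Synaptic members of the list differed in spread. Plk2, a kinase that tunes down excitatory synapses after activity, stood at 95.1, 104 and 94.6 FPKM under saline and at 131, 129 and 127 FPKM under amphetamine (log2 difference 0.40 ± 0.09 SE, limma adjusted p = 0.46). Arc, a regulator of AMPA receptor traffic, showed a larger ratio and a larger spread, with 27.7, 37.7 and 20.4 against 95.5, 54.7 and 63.3 FPKM (1.29 ± 0.30, limma adjusted p = 0.700). Npas4, a transcription factor that calcium influx switches on, overlapped in 1 animal at 5.73, 8.01 and 3.46 against 7.50, 10.9 and 12.2 FPKM. Homer1 was slightly lower, at 67.4, 59.3 and 62.5 against 58.4, 58.3 and 59.0 FPKM, and its short activity-induced form is not separated in these gene-level values.

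The remaining immediate-early genes were higher in 24 of 27 (42.7% of all genes). Of these, 10 had an unadjusted p under 0.05 (2.33% of all genes). Cyr61, a secreted matrix protein, was at 2.08, 2.25 and 2.14 FPKM under saline and at 4.04, 3.23 and 4.52 FPKM under amphetamine (log2 difference 0.64 ± 0.13 SE, limma adjusted p = 0.445). Rgs2, which shortens G protein signals, was at 44.3, 35.9 and 42.3 against 56.9, 55.5 and 57.4 FPKM (0.47 ± 0.10, limma adjusted p = 0.445). Ppp1r15a, a phosphatase subunit of the integrated stress response, was at 5.03, 6.32 and 4.78 against 9.25, 7.42 and 7.38 FPKM (limma adjusted p = 0.700). Zfp36, which speeds the decay of short-lived messages, and Trib1, a pseudokinase, differed by 0.43 each on the log2 scale. The transcript listed as AK006051, which carries no gene symbol in the table, was separated in the same way, with 5.73, 4.93 and 3.96 against 15.7, 11.8 and 10.6 FPKM (1.22 ± 0.20, limma adjusted p = 0.0733).

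The extremes within each group came mostly from the same animals. Of the 17 immediate-early genes with groups apart on the higher side, amphetamine replicate 1 was the highest animal in 13 and replicate 3 in the other 4. Saline replicate 3 was the lowest control in 11 and saline replicate 2 the highest control in 13.

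Feedback regulators of ERK signalling followed the same direction in 11 of 12 tested members, with a median of 0.10 and 4 members at an unadjusted p under 0.05, all higher (2.33% of all genes). Restricting the test to genes of at least 5 FPKM left fewer members and a median of 0.21. Dusp1, a nuclear phosphatase that inactivates MAP kinases, stood at 13, 16.5 and 11.3 FPKM under saline and at 37.0, 25.9 and 26.2 FPKM under amphetamine (log2 difference 1.07 ± 0.21 SE, limma adjusted p = 0.402). Dusp6, the cytoplasmic phosphatase of ERK, was at 11.7, 13.3 and 11.2 against 26.1, 19.1 and 17.1 FPKM (0.72 ± 0.21, limma adjusted p = 0.769). Dusp5 and Spry2, a nuclear ERK phosphatase and an inhibitor of receptor signalling to Ras, differed by 0.64 and 0.31 without overlap. The exception was Spred1, a Ras pathway inhibitor, at 55.0, 55.2 and 54.9 against 53.8, 50.04 and 50.02 FPKM. Genes of the later activity response were mixed, with 5 of 11 higher and a median of -0.04. Gpr3, a receptor that raises cAMP, measured 1.89, 1.89 and 1.45 FPKM against 3.30, 3.12 and 3.01 FPKM, and Scg2, a secretory granule protein, overlapped at 72.7 to 109 against 108 to 127 FPKM.

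**Figure D2:**
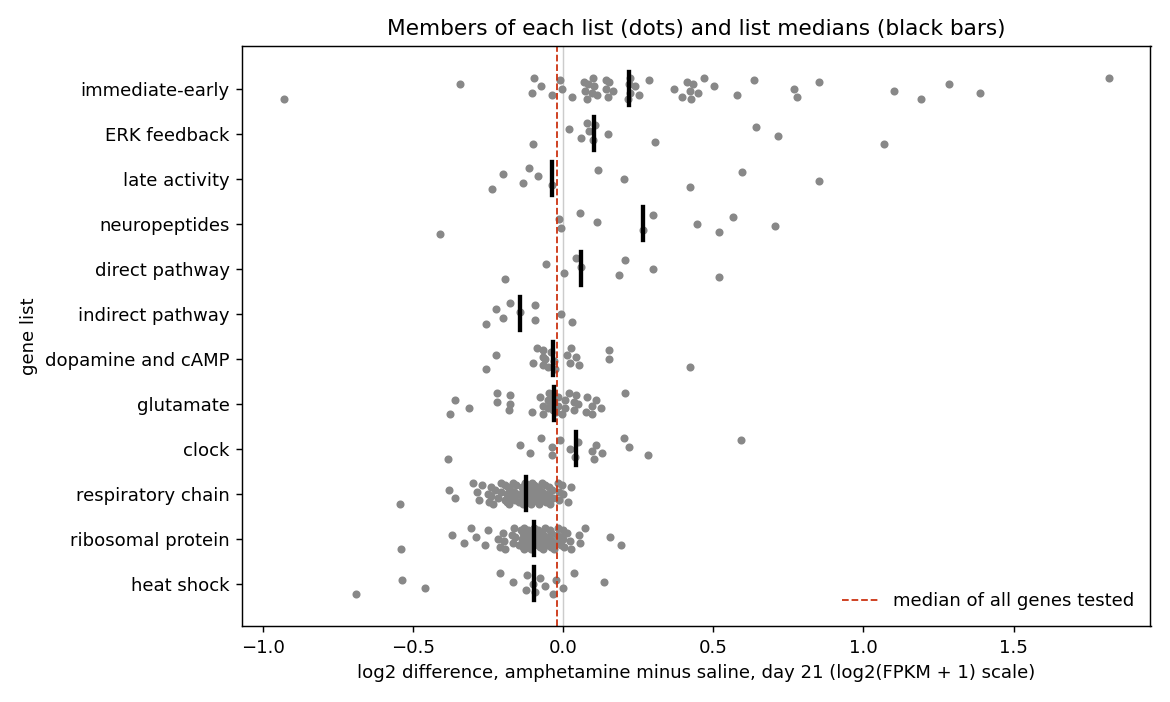
Log2 difference, amphetamine minus saline on day 21 (log2(FPKM + 1) scale), of every tested member (dots) of 12 gene lists, with the list median (black bar) and the median of all tested genes (dashed line, -0.02). Immediate-early genes extend to 1.82 with a median of 0.22, while 74 of 76 respiratory chain genes lie below 0 with a median of -0.12.

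Transcripts that mark direct-pathway neurons were higher in 7 of 9 tested, with a median of 0.06, and 3 had groups that did not overlap, all higher (background 4.76%). Leaving out amphetamine replicate 1 gave a median of 0.143, leaving out amphetamine replicate 2 gave 0.025 and leaving out amphetamine replicate 3 gave 0.028. The neuropeptide precursors led. Pdyn, the dynorphin precursor, measured 54.1, 46.6 and 48.4 FPKM in the saline animals and 65.6, 74.7 and 74.5 FPKM in the amphetamine animals, with means of 49.7 ± 3.86 and 71.6 ± 5.21 FPKM (SD, n = 3 each). Every drug-treated animal was above every control, by a ratio of 1.44 between means, or 0.52 ± 0.13 SE on the log2 scale (limma adjusted p = 0.769). Tac1, the substance P precursor, was at 226, 208 and 223 against 246, 278 and 287 FPKM (0.30 ± 0.12, limma adjusted p = 0.869). Isl1, a transcription factor of direct-pathway neurons, was at 7.24, 7.01 and 6.70 against 7.49, 8.48 and 8.31 FPKM (0.19 ± 0.08, limma adjusted p = 0.869). Drd1a, the D1 receptor itself, was near level at 108, 114 and 111 against 109, 118 and 117 FPKM (0.04 ± 0.06, limma adjusted p = 0.932).

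Indirect-pathway markers lay on the other side in 8 of 9, with a median of -0.14, where 56.6% of all genes were lower. Adora2a, the adenosine receptor that opposes D2 signals, was at 156, 208 and 180 FPKM under saline and at 152, 137 and 164 FPKM under amphetamine (log2 difference -0.26 ± 0.11 SE, limma adjusted p = 0.869). Drd2 overlapped more widely, at 118, 153 and 135 against 113, 101 and 135 FPKM (-0.22 ± 0.12, limma adjusted p = 0.869). The kainate receptor gene Grik3 was the only marker of the list whose groups did not overlap, at 15.8, 16.03 and 16.2 against 14.5, 13.2 and 14.5 FPKM. Penk, the enkephalin precursor and the most abundant of these transcripts, did not separate the groups at 1122, 1279 and 1250 against 1141, 1187 and 1306 FPKM (-0.01 ± 0.10, limma adjusted p = 1). Its sign turned under median-of-ratios scaling (0.02). Saline replicate 2 was the highest control for Adora2a, Drd2 and Penk, and without it the median of the list was -0.04 with 6 of 9 lower.

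**Figure D3:**
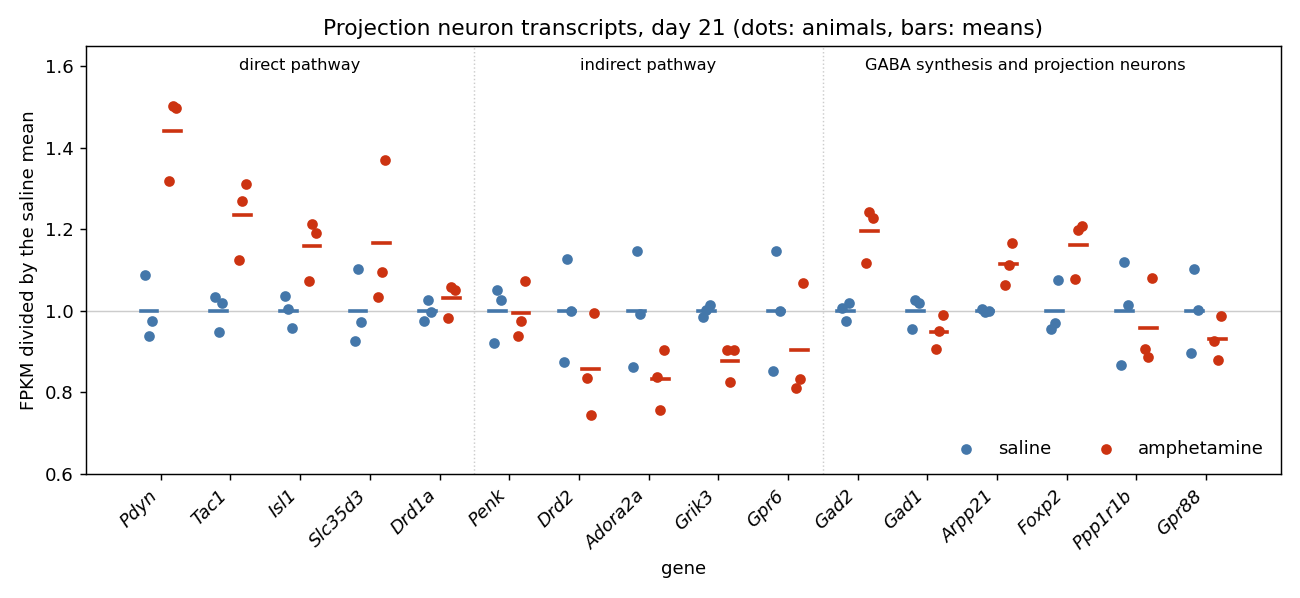
FPKM of 16 projection neuron transcripts on day 21, each divided by its mean in the saline group, by animal (dots) with group means (bars). Pdyn in the amphetamine animals lies wholly above the saline animals at a mean ratio of 1.44, Drd1a and Penk sit near 1, and Drd2 and Adora2a overlap between groups.

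Across all 11 tested neuropeptide genes 8 were higher and the median was 0.27, a value that came to 0.08 among genes of at least 5 FPKM and to 0.09 without saline replicate 2. Cartpt, the CART peptide precursor, spanned 0.964 to 6.11 FPKM in the saline animals and 4.56 to 6.27 FPKM in the amphetamine animals. Among the opioid receptors, which receive these peptides, Oprk1, the dynorphin receptor, was at 5.60, 6.49 and 5.56 against 6.26, 7.27 and 10.8 FPKM, and Oprm1 at 2.36, 0.870 and 1.16 against 2.03, 2.26 and 2.06 FPKM. Both overlapped. Gad2, which makes GABA, was at 94.9, 91.8 and 96.0 FPKM under saline and at 105, 117 and 116 FPKM under amphetamine (log2 difference 0.26 ± 0.08 SE, limma adjusted p = 0.769). Its paralogue Gad1 overlapped at 180 to 197 FPKM under the drug and 190 to 204 FPKM under saline. Arpp21, a cAMP-regulated phosphoprotein of projection neurons, was at 482, 479 and 480 against 511, 534 and 560 FPKM, and Foxp2, a transcription factor of these cells, at 14.2, 14.5 and 16.01 against 16.1, 17.9 and 17.99 FPKM. Their list as a whole was lower in 14 of 17.

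Signalling genes downstream of the receptors had list medians near that of all genes (-0.02). In the dopamine, adenosine and cAMP list 12 of 20 were lower, with a median of -0.03, close to the 56.6% of all genes. Pde1c, a calcium-dependent phosphodiesterase, had the smallest p at 3.73 to 5.68 against 5.56 to 8.23 FPKM (log2 difference 0.42, limma adjusted p = 0.869). Rasgrp1 and Rasgrp2, the calcium- and diacylglycerol-regulated exchange factors of Ras and Rap that are enriched in striosome and matrix respectively, were both slightly lower without overlap. Rasgrp1 was at 142, 147 and 141 against 131, 136 and 137 FPKM (-0.09 ± 0.07), and Rasgrp2 at 232, 261 and 245 against 225, 228 and 224 FPKM (-0.12 ± 0.10, limma adjusted p = 0.878 for both). In the list of such exchange factors and Rap1 genes 6 of 11 were higher, with a median of 0.01. Groups did not overlap in 2 of the 11 on the lower side (7.51% of all genes) and in 1 on the higher side (4.76%). Compartment markers went the other way, with 5 of 8 striosome and 5 of 6 matrix genes higher (42.7% of all genes). Of 37 glutamate receptor and scaffold genes 23 were lower, with a median of -0.03, also near the 56.6% of all genes. Their groups did not overlap in 5 on the lower side (7.51% of all genes) and in 1 on the higher side (4.76%). An unadjusted limma p under 0.05 occurred in 3 of them, all lower (3.17% of all genes). Dlgap1, a postsynaptic scaffold, was at 24.8, 20.6 and 20.8 against 19.2, 19.2 and 17.7 FPKM (-0.22 ± 0.08 SE, limma adjusted p = 0.869). Its highest control was saline replicate 1, the library with the most cortical transcript. Over 16 alternative settings its log2 difference ran from -0.27 to -0.14.

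Genes of the mitochondrial respiratory chain were lower almost throughout, each by a small amount. Amphetamine values were lower in 74 of 76 nuclear-encoded subunits, against 56.6% of all genes, with a median log2 difference of -0.12. In 10 the unadjusted p was under 0.05, all lower (background 3.17%), and in 14 the groups did not overlap, all lower (background 7.51%). Complex I, the entry point for NADH, was lower in 36 of 37, and complex IV and ATP synthase in 11 of 11 and 15 of 15. Ndufc1, a complex I subunit, stood at 92.7, 97.6 and 83.2 FPKM under saline and at 78.2, 76.1 and 67.2 FPKM under amphetamine (-0.30 ± 0.10 SE, limma adjusted p = 0.869). Cox5a, a complex IV subunit, was at 141, 146 and 149 against 125, 130 and 135 FPKM.

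The level of the whole list was not separated in every animal, whereas complexes I and IV taken alone had groups without overlap. Mean log2 levels of the whole list were 6.41, 6.58 and 6.59 under saline and 6.36, 6.40 and 6.41 under amphetamine. Saline replicate 1 thus lay beside the drug group. Without that library 75 of 76 were lower with a median of -0.18. Ribosomal protein genes were lower in 62 of 72, against 56.6% of all genes (median -0.10, or -0.06 after quantile normalization). Groups did not overlap in 11 on the lower side (7.51% of all genes) and in 1 on the higher side (4.76%). Rpl37 was at 59.3, 66.1 and 65.5 against 51.2, 50.5 and 49.6 FPKM (-0.33 ± 0.11, limma adjusted p = 0.869). Both lists consist of short, abundant transcripts, with median lengths of the longest annotated transcript of 1135 and 1094 bases against 3452 over all genes with a length. The 342 genes with a longest transcript under 1000 bases and a mean of at least 20 FPKM on day 21, which include members of both lists, had a median of -0.10 and 67.3% of them were lower. Without those members, 281 such genes had a median of -0.07 and 60.9% were lower, and at any level the 675 genes under 1000 bases outside both lists had a median of -0.03 with 55.0% lower. Relative depth also differed, with means of 0.873 under saline and 0.765 under amphetamine. With depth as a covariate, 75 respiratory chain genes were lower with a median of -0.18 and 38 immediate-early genes were higher with a median of 0.19. The part of transcript length in these results was not tested.

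**Figure D4:**
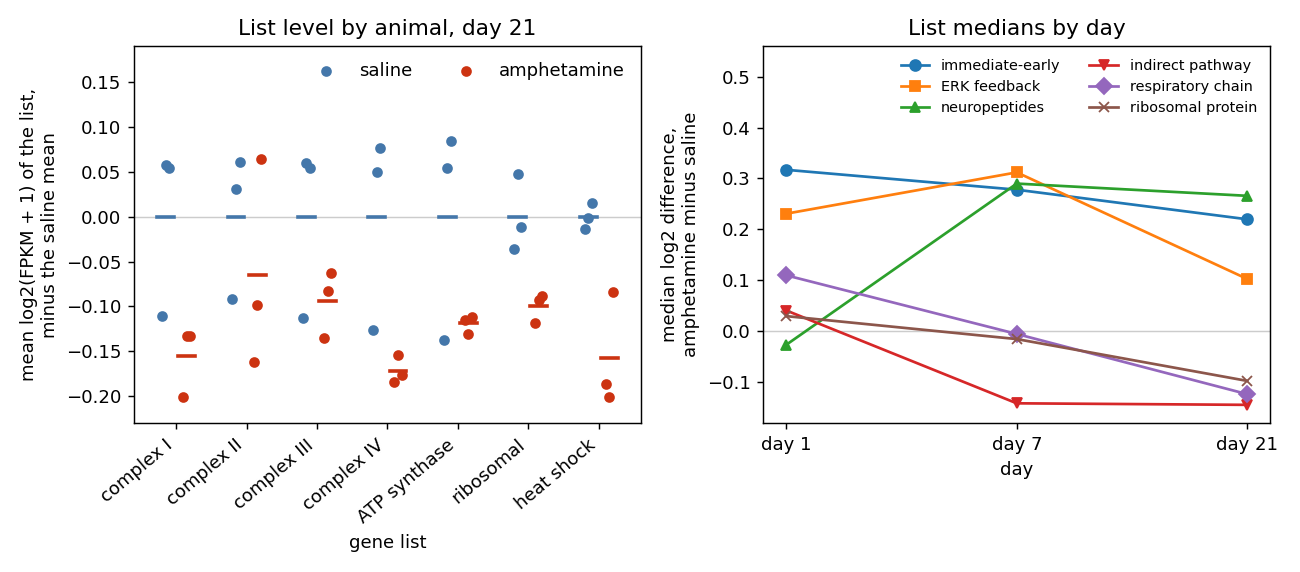
Left, mean log2(FPKM + 1) of 7 lists in each animal of day 21, minus the saline mean of the list (dots, with bars at group means). The amphetamine animals lie low without overlap in the ribosomal, heat shock, complex I and complex IV lists. Saline replicate 1 is the low blue point of each respiratory complex. Right, list medians of the log2 difference on days 1, 7 and 21, which come from separate animals on each day. The respiratory chain median was 0.11 on day 1 and -0.12 on day 21.

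Heat shock genes were lower in 14 of 16 (56.6% of all genes) with a median of -0.10, and their mean log2 levels did not overlap between the groups. Hspa1a, the inducible HSP70, was at 2.11, 2.26 and 1.85 FPKM under saline and at 0.767, 0.647 and 1.37 FPKM under amphetamine (log2 difference -0.69 ± 0.23 SE, limma adjusted p = 0.869). Its near-identical copy Hspa1b could share its reads, so both are uncertain. Hspa8, the constitutive form, was at 321, 326 and 319 against 256, 269 and 312 FPKM. Hspb1, a small heat shock protein, was at 5.97, 7.04 and 5.86 against 4.62, 3.40 and 5.002 FPKM. Among the clock genes, 11 of 18 were higher (42.7% of all genes). Gm129, now called Ciart, a repressor within the clock, was at 10.3, 8.15 and 12.04 against 19.2, 12.9 and 15.3 FPKM (0.59 ± 0.20, limma adjusted p = 0.869). Bhlhe40, another repressor, was at 21.3, 17.8 and 22.2 against 30.3, 22.8 and 22.4 FPKM. Arntl, the BMAL1 activator, was at 9.41, 10.2 and 10.8 against 7.59, 7.97 and 7.08 FPKM (-0.38 ± 0.15, limma adjusted p = 0.869).

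No marker of other cells in the dissected tissue passed the adjusted threshold. Myelin and oligodendrocyte markers were lower in 14 of 16 (median -0.14, with 56.6% of all genes lower), with summed levels of 1648 to 2299 FPKM under saline and 1683 to 2026 FPKM under amphetamine. Haemoglobin and Alas2 transcripts of blood were higher in 3 of 3 without overlap, which held for 4.76% of all genes, with a median log2 difference of 0.61. Hbb-b1 was at 31.4, 31.5 and 19.8 FPKM against 42.0, 33.2 and 51.7 FPKM (log2 difference 0.61 ± 0.52 SE, limma adjusted p = 0.879). Ttr of the choroid plexus varied from 4.73 to 30.5 FPKM among the saline animals alone. Of the markers of meningeal fibroblasts 6 were below 1 FPKM on average and untested, with Col1a1 between 0.219 and 0.415 FPKM. The 2 tested, Dcn at 1.40 to 2.89 FPKM and Igf2 at 2.49 to 4.95 FPKM, were both lower (56.6% of all genes), with overlapping groups. The part of these cells in the results above was not tested.

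The other genes with the smallest p were not activity genes. Rnf41, a ubiquitin ligase, was at 20.7, 23.6 and 20.3 FPKM under saline and at 14.97, 15.1 and 17.1 FPKM under amphetamine (log2 difference -0.43 ± 0.09 SE, limma adjusted p = 0.445). BC116340, which has no other name in the table, was at 12.3, 20.1 and 17.2 FPKM against 0, 3.10 and 0 FPKM (limma adjusted p = 0.0604). Its values were low in fragments, since the highest day 21 libraries held 6.25 times the smallest depth-scaled amount above 0 in any of the 18 libraries, and it was above 0 in every library of days 1 and 7. AK186849 was at 2.90, 3.29 and 3.32 against 1.31, 0.316 and 0.119 FPKM (limma adjusted p = 0.46).

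Tests of the difference between days asked whether the effect of the drug on day 21 departed from that on day 7 or day 1, each measured against its own saline group. No gene passed in either test (smallest limma adjusted p = 0.539 against day 7 and 0.456 against day 1). An unadjusted p under 0.05 occurred in 574 genes (4.11%) against day 7 and in 1361 genes (9.74%) against day 1. Of the 20 immediate-early genes at an unadjusted p under 0.05 on day 21, 19 were also higher on day 7 and 20 on day 1. Their medians were 0.54 on day 21, 0.69 on day 7 and 0.59 on day 1, where those of all genes were -0.02, 0.004 and 0.05. On the higher side their groups did not overlap in 16 on day 21 (4.76% of all genes), in 18 on day 7 (5.45%) and in 15 on day 1 (7.73%). Since these genes were picked by their day 21 values, the day 21 median and the day 21 count are descriptions only. The list they came from was written with earlier results of these data known, so the values of days 7 and 1 are descriptions too. Day 21 gave Fos a log2 difference of 1.82, day 7 one of 2.26 and day 1 one of 1.87, and Arc had 1.29, 1.56 and 1.22 in that order. Over the whole immediate-early list, 2 of 48 differed from day 7 and 1 of 48 from day 1 at an unadjusted p under 0.05.

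Pdyn had a log2 difference of -0.19 on day 1 but 0.63 on day 7 and 0.52 on day 21. Its day 21 to day 1 contrast had an unadjusted p of 0.00145 (limma adjusted p = 0.456). Saline means of Pdyn were 63.7, 41.9 and 49.7 FPKM on days 1, 7 and 21, and amphetamine means 55.6, 64.4 and 71.6 FPKM, so both groups differed between days. The log2 difference of Oprk1 was -0.56 on day 1 and 0.38 on day 21, and that of Adora2a 0.17 on day 1 and -0.26 on day 21. Means of Oprk1 on days 1 and 21 were 7.63 and 5.88 FPKM under saline and 4.93 and 8.10 FPKM under amphetamine. Those of Adora2a were 143 and 181 FPKM under saline and 161 and 151 FPKM under amphetamine. Respiratory chain genes had a median of 0.11 on day 1, when 70 of 76 were higher, of -0.01 on day 7 and of -0.12 on day 21. In 21 of the 76 the day 21 to day 1 contrast had an unadjusted p under 0.05, against 9.74% of all genes, and in none did that to day 7. The median over all genes moved in the same sense, from 0.05 on day 1 to -0.02 on day 21. Among the genes with the smallest p in this contrast, Kcnq5, a potassium channel subunit that damps firing, was at 28.5, 28.1 and 28.6 FPKM under saline and at 34.0, 34.5 and 37.2 FPKM under amphetamine on day 21 (log2 difference 0.30), against -0.43 on day 1. Tsfm, a mitochondrial translation elongation factor, differed by -0.21 on day 21 and 0.52 on day 1. Dinb1, an older symbol of Polk that is listed beside it, was at 0.00259 to 0.534 FPKM against 0.603 to 1.47 FPKM, with a limma adjusted p of 0.781 on day 21, and reads divided between the entries make it uncertain.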

How the data were processed

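Striatal polyA RNA of 18 mice was sequenced, 3 for each of 6 groups given by the labels, and the deposited table holds 29942 genes in 18 columns. The values are FPKM made by the authors, scaled to transcript length and mapped fragments. Bowtie and build mm9 are named in the submitters' processing notes. The sources used here do not give versions, quantifier, annotation or strand handling.

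FPKM are not counts, so log2(FPKM + 1) was tested with limma (version 3.58.1, R version 4.3.3) on all 18 libraries, with group means and a trended prior variance, for 13975 genes with a mean of at least 1 FPKM. P-values are two-sided and Benjamini-Hochberg adjusted over all genes tested, and they measure the spread between the animals of a group. An exact permutation of 3 against 3 cannot go below 0.1. Absolute depth is unknown. Relative depth was read from the steps between low values, and no columns of other samples were found (0).

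Members of the lists and the genes named were chosen with earlier results of these data known. Named were the 10 genes with the smallest p on day 21, as none passed, up to 4 members per list by smallest p, genes with a known striatal role and the 3 smallest p of each contrast between days, though not all are printed. Gene-list results carry no test. RefSeq promoters (GRCm38.p6) gave sequences and GENCODE transcripts gave lengths for 11428 tested genes, both by symbol, since the build differs from mm9. The fit was tested on simulated data, and figures were drawn with matplotlib (version 3.10.9).

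Alternatives were a pseudocount of 0.1, no filter, a minimum of 5 FPKM, median-of-ratios and quantile scaling, robust moderation, a replicate block, the 6 day 21 libraries alone and each library left out. Relative depth as a covariate and exclusion of 307 short RNA genes were chosen after seeing the data.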

Additional observations from a re-analysis of the deposited data

How the results depend on the processing

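On day 21 the count of 0 genes past the threshold became 4 with a minimum of 5 FPKM (BC116340, Btg2, Fos and AK006051), the same 4 without short RNA genes, 3 after quantile normalization (BC116340, Btg2 and Fos) and 6 in the day 21 libraries alone, all of them microRNA or small nucleolar RNA genes. Leaving out single libraries gave 0 to 2, with short RNA genes or BC116340 past the threshold, and 0 to 2 for the contrast with day 7 and 0 to 1 for that with day 1. The number at an unadjusted p under 0.05 was 768, and 1574 with relative depth as a covariate.

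With a minimum of 5 FPKM the ERK feedback median was 0.21 with 5 members higher, the neuropeptide median 0.084 with 4 higher and the direct-pathway median 0.19. The direct-pathway median was 0.025 to 0.143 when single libraries were left out. Quantile normalization gave a ribosomal median of -0.058, and depth as a covariate a heat shock median of -0.17. Penk, at -0.01, turned to 0.015 under median-of-ratios scaling and 0.00 after quantile normalization, and spanned -0.064 to 0.036 without single libraries. Slc17a7 spanned -1.14 to 0.136 without single libraries, the latter without saline replicate 1. Ttr turned to 0.55 with depth as a covariate and spanned -1.08 to 0.146 without single libraries, above 0 without amphetamine replicate 3 and without saline replicate 3. The cause was not tested.

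Replicate numbers were shared between groups, but deviations of same-numbered animals correlated at 0.114, 0.0426 and 0.145, so the numbers were not taken to pair animals, although each correlated best with its own number. A fit with the replicate block left 0 genes past the threshold and 621 at an unadjusted p under 0.05. With 3 animals a group, the SE beside each value sets what could be resolved, and without read counts the counting error of low genes is unknown.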

Other observations

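Genes of the unfolded protein response, chaperones and enzymes of the endoplasmic reticulum, were lower under amphetamine in 15 of 19 on day 21 (median -0.06), against 56.6% of all genes, whereas 19 of 19 were higher on day 7 and 18 of 19 on day 1. Their median was 0.11 on day 7 and 0.14 on day 1, where the median of all genes was 0.004 and 0.05. None of the 19 had groups that did not overlap on day 21. In 2 of the 19 the contrast with day 7, and in 2 that with day 1, had an unadjusted p under 0.05, where 4.11% and 9.74% of all genes did. Glucocorticoid receptors and responsive genes were higher in 12 of 18 (42.7% of all genes) with a median of 0.08, against 0.15 on day 7 and 0.24 on day 1, and Fkbp5, a co-chaperone of the receptor, was at 11.9, 12.7 and 13.1 FPKM under saline and at 13.01, 13.4 and 14.5 FPKM under amphetamine.

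Regulators of G protein signalling divided evenly, with 9 of 16 higher. Rgs7bp, which anchors RGS proteins of the striatum to the membrane, was at 126, 139 and 126 FPKM under saline and at 126, 111 and 105 FPKM under amphetamine (limma adjusted p = 0.869). Oprl1, the nociceptin receptor, was at 11.3, 9.98 and 9.72 against 8.91, 8.57 and 8.92 FPKM, and its groups did not overlap. Interneuron markers were higher in 8 of 14 (42.7% of all genes) with a median of 0.02, and none had an unadjusted p under 0.05.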
